A study of Mus musculus with 11 samples.

Results

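Receptors for neurotransmitters were followed in cultures of mouse oligodendrocytes, which wrap axons of the central nervous system in myelin, and of their progenitors. The genes were chosen by symbol, under a rule made with earlier results of these data known. They were those encoding receptors for glutamate, GABA, glycine, acetylcholine or serotonin that a probe set of the array named without naming any other gene. This gave 74 genes on 143 probe sets, of 18194 genes in all. A probe set was called measured when its signal reached 200 on at least 3 of the 11 arrays, and 19 of the 74 receptor genes had such a probe set, of 10070 measured genes. The comparisons asked how receptor RNA differs when the transcription factor Myrf, labelled MRF, is missing, and how it changes when progenitors differentiate.

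The cells came from mouse brains at postnatal day 7 and were taken up on an antibody to PDGFRα after microglia had been removed with BSL1. They grew without serum, in medium with B-27, and were expanded in PDGF-AA before differentiation. Knockout oligodendrocytes (n = 3) carried MRF fl/fl and Olig2 wt/cre, and control oligodendrocytes (n = 4) came from littermates with MRF wt/fl and Olig2 wt/cre, so that both carried Cre in 1 copy of the Olig2 gene and the controls could lose 1 copy of MRF. Differentiation was started in both by taking PDGF-AA away and adding T3, a thyroid hormone, at 40 ng/ml, and RNA was taken 4 days later. Progenitors (n = 4) had spent 6 days in medium with 10 ng/ml PDGF and are described only as controls, with no genotype. Nothing in the labels states that replicates are separate cultures or animals, so p-values cover no more than the spread seen among these samples, and that spread may be technical.

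Ionotropic receptors are ion channels built from several subunits, and the mix of subunits sets how fast they open and which ions pass, while metabotropic receptors act through G proteins. Oligodendrocyte progenitors are known to carry AMPA-type and kainate-type glutamate receptors and GABA-A receptors and to receive synapses from axons. These receptors are known to change as the cells mature, and overactive AMPA and kainate receptors can injure oligodendrocytes.

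Myrf, the targeted gene, had signals of 2849, 1904 and 2223 in the knockout and of 6215 to 7517 in the controls, from a single probe set. Whether this probe set lies in the deleted part was not examined, so it is a limited check of the labels. Among progenitors, Myrf reached 6848 on replicate 2 and 752.1 to 1135 on the rest. In the limma fit to all 11 arrays described below, Myrf did not pass between knockout and control (log2 difference -1.58, adjusted p = 0.127). That p was 0.000257 with only the compared groups and 0.000892 with replicate number as a block. RNA length was followed by dividing the Gapdh signal of the 5′ probe set by that of the 3′ probe set. This gave 1.26 to 1.41 for oligodendrocyte arrays, 1.23 and 1.15 for progenitor replicates 2 and 3, and 0.332 and 0.12 for replicates 1 and 4. Oligodendrocyte markers summed to signals of 67318 to 87286 on control, 35525 to 41039 on knockout and 12263 to 50540 on progenitor arrays. The 4 progenitor markers were Pdgfra, Cspg4, Vcan and Ptprz1. They summed to 6539.8 to 9621.2 on control, 10333 to 11018 on knockout and 16263 to 36500 on progenitor arrays. All 10 astrocyte markers were measured, and they summed to 57115 to 78716 on control, 86995 to 94458 on knockout and 5878.7 to 10903 on progenitor arrays. In progenitors the astrocyte markers Gfap, Aqp4 and Gja1 stayed at or below 100.3, 21.9 and 11.4. Neuron markers summed to 4055.8 to 5097.3 on control, 4404.7 to 5524.9 on knockout and 7337.6 to 17313 on progenitor arrays, with Nefh and Rbfox3 under 100 everywhere. Map2 alone gave 5386 to 9512 in progenitors, and the list did not move as one. In the limma test described below, 2 of 7 measured neuron markers were higher and 2 lower in control oligodendrocytes than in progenitors. In the knockout 1 was higher and 5 were lower than in progenitors. Mural and fibroblast markers summed to 707.6 to 1946.1 on control, 3441.9 to 5343.7 on knockout and 241.2 to 504.3 on progenitor arrays. No endothelial marker passed 55.3 and no microglial marker passed 147.3. In such bulk samples fewer cells of a type and less RNA per cell cannot be told apart.

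Glutamate receptor genes made up 11 of the 19 measured genes. All 4 AMPA receptor genes and 3 of 5 kainate receptor genes were measured, as were the single delta receptor gene and 2 of 6 metabotropic glutamate receptor genes, but 1 of 6 NMDA receptor genes. On the inhibitory side 3 of 15 GABA-A genes, the single GABA-B gene and 1 of 5 glycine receptor genes were measured. Of 15 nicotinic genes 2 were measured, of 13 serotonin receptor genes 1, and of 3 muscarinic genes 0. Among the 55 genes below the filter, 44 never reached a signal of 100 on any array, 7 peaked between 100 and 200, and 4 reached 200 on too few arrays. The highest of these were Gabra2 at 373.3 on knockout replicate 2, Chrm1 at 308.4 on progenitor replicate 4, Htr1b at 237.1 on control replicate 2 and Grik4 at 211.9 on knockout replicate 2, followed by Gabrb2 at 183.7 on progenitor replicate 2.

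**Figure D1:**
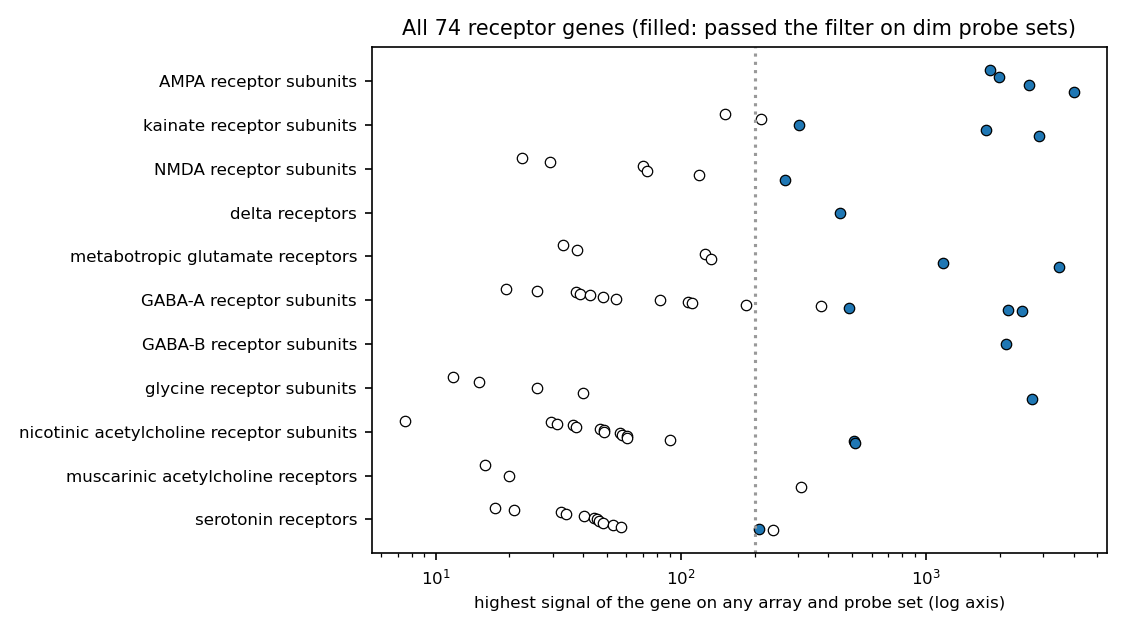
Highest signal of each of the 74 receptor genes on any array, on a log axis, by receptor family, with filled points for the 19 genes that passed the filter and the dotted line at a signal of 200. All 4 AMPA genes are filled, against 2 of 15 nicotinic genes and 0 of 3 muscarinic genes. Signals of different genes come from different probes and are not compared in level.

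Which group brought a gene over the filter differed, and passing only through a group where a gene was bright favours a difference, so the shares below describe measured genes and not all 74. Chrna7, Htr3a and Grid1 reached 200 on 3 arrays only among progenitors, Grik2 and Grm7 only among control oligodendrocytes, and Chrna4 and Grin3a only among knockout oligodendrocytes. Gria1, Gabra4 and Gabrb1 did so in both oligodendrocyte groups and not in progenitors. The other 9 genes did so in all groups.

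Between knockout and control oligodendrocytes, 4 glutamate receptor genes were higher in the knockout and 0 receptor genes were lower. They were the AMPA subunits Gria3 and Gria4, the kainate subunit Grik5 and the delta receptor Grid1. The test was limma on log2 of the signal plus 16, fitted to all 11 arrays, with Benjamini-Hochberg adjustment of p-values across the 10070 genes and a threshold of 0.05. The 4 genes were 21.1% of the measured receptor genes, where 3.64% of all genes were higher and 3.88% were lower. At an unadjusted p under 0.05 the limma counts were 8 higher and 3 lower, where 12.3% of all genes were higher and 8.88% lower. The median log2 difference was 0.49 over the 19 genes and 0.03 over all genes. With replicate number as a block, in a fit of the 3 same-numbered pairs that leaves out control replicate 4, 9 receptor genes were higher and 1, Grm7, was lower, where 13.0% of all genes were higher and 9.24% lower. The genes added there were Gria1, Grin3a, Gabra4, Gabrb1 and Gabrg1. Without knockout replicate 1, 2 or 3, or control replicate 1, 2 or 3, only Gria3 and Gria4 passed in this comparison, and without progenitor replicate 2, whose spread enters the fit, 6 genes passed.

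Between control oligodendrocytes and progenitors 15 of the 19 genes differed, 7 higher and 8 lower in the oligodendrocytes. The higher genes were Gria1, Grik2, Grm7, Gabra4, Gabrb1, Gabbr1 and Glrb, and the lower ones were Gria2, Gria3, Gria4, Grik3, Grid1, Gabrg1, Chrna7 and Htr3a. They made up 36.8% and 42.1% of the measured receptor genes, where 24.4% of all genes were higher and 29.6% lower. The median log2 difference was -0.26 over the receptor genes and -0.09 over all genes. Without progenitor replicates 1 and 4, whose Gapdh ratios were low, 17 receptor genes passed the filter and 12 differed, with Grm7 no longer among them.

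Between knockout oligodendrocytes and progenitors 13 of the 19 genes differed, 8 higher and 5 lower in the knockout. The higher genes were Gria1, Gria4, Grik2, Grik5, Gabra4, Gabrb1, Gabbr1 and Glrb, and the lower ones were Gria2, Grik3, Gabrg1, Chrna7 and Htr3a. They made up 42.1% and 26.3%, where 23.8% of all genes were higher and 26.8% lower. The median log2 difference was 0.29 over the receptor genes and -0.05 over all genes. Without progenitor replicate 1 or without progenitor replicate 2 the lower count was 3, since Chrna7 and Htr3a then missed the filter. The 3 comparisons share arrays, so their values are given side by side below and not correlated.

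**Figure D2:**
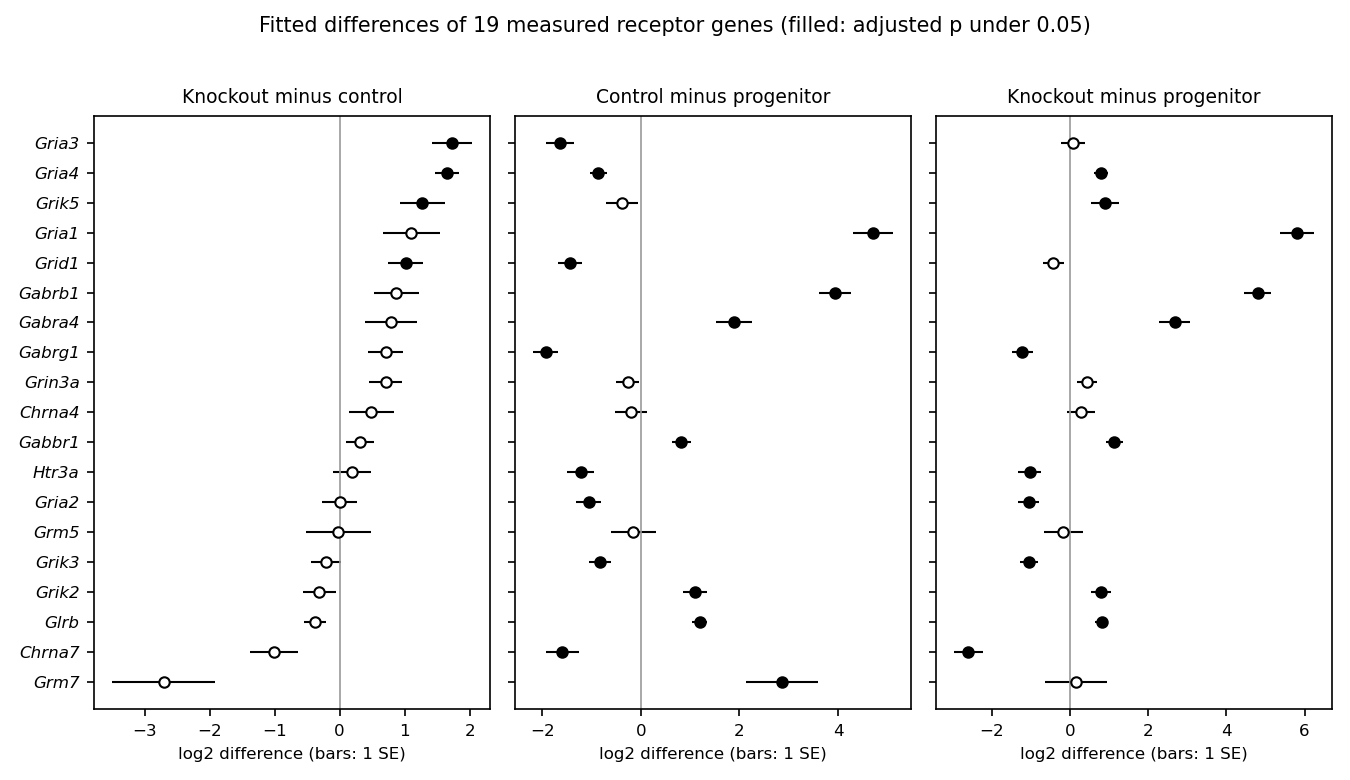
Fitted log2 differences of the 19 measured receptor genes in the 3 comparisons, with bars of 1 standard error and filled points where the adjusted p was under 0.05. In the knockout against control panel 4 points are filled, all to the right of 0. In the other panels filled points lie on both sides, with Gria1 and Gabrb1 farthest to the right.

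Gria1 encodes an AMPA receptor subunit. On its brighter probe set, 1435239_at, progenitor replicates 1 to 4 gave signals of 1.9, 6, 14.2 and 3.2. Control oligodendrocytes gave 727, 980.8, 256.3 and 506, and knockout oligodendrocytes gave 1239, 1992 and 704.5. Gria1 was thus near 0 on every progenitor array and far above it on every oligodendrocyte array, with no overlap. Against a floor of 100, which all progenitor arrays lay under, it was at least 6.18-fold higher in control oligodendrocytes (log2 difference 4.70 ± 0.41 SE, limma adjusted p = 4.56e-06). It was at least 13.1-fold higher in knockout oligodendrocytes (5.80 ± 0.44 SE, adjusted p = 1.89e-06). The knockout and control arrays of Gria1 overlapped, at a log2 difference of 1.10 ± 0.44 (SE) and an adjusted p of 0.17. With the replicate block that p was 0.00889. The second probe set gave the same order of groups, with progenitor signals of 1.8 to 23.9 and oligodendrocyte signals of 188 to 1260.

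Gria2 encodes the subunit whose RNA is edited so that AMPA channels holding it pass little calcium. Its signals were 2694, 2903, 3996 and 1898 on the progenitor arrays, 1072, 1103, 1645 and 1595 on control arrays and 1048, 1319 and 1698 on knockout arrays. On this brightest probe set, 1421970_a_at, every progenitor array was above every oligodendrocyte array, while knockout and control arrays overlapped. Gria2 was 2.08-fold lower in control oligodendrocytes than in progenitors (limma adjusted p = 0.00392) and likewise 2.08-fold lower in knockout oligodendrocytes (adjusted p = 0.00646). Knockout and control differed by 0.00 ± 0.27 (SE) on the log2 scale, and by -0.043 after quantile normalization. A second measured probe set gave 1571 to 2802 in progenitors and 521.6 to 700.6 in oligodendrocytes. On the dimmest measured probe set progenitors gave 274.6 to 753.6. They overlapped control (136 to 306.7) and knockout arrays (179.7 to 279.1) there. Of the AMPA genes, Gria1 was thus higher and Gria2 lower in both oligodendrocyte groups than in progenitors.

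Gria3, a further AMPA subunit, gave signals of 293.2, 405.7, 371 and 389 on control arrays and of 1614, 1088 and 1070 on knockout arrays of probe set 1434728_at. Progenitors gave 1151, 621.8, 1827 and 1391. The control arrays were the lowest of all, below every progenitor and every knockout array, and knockout and progenitor arrays overlapped. Gria3 was 3.31-fold higher in knockout than in control oligodendrocytes (log2 difference 1.73 ± 0.31 SE, limma adjusted p = 0.00491). It was 3.12-fold lower in control oligodendrocytes than in progenitors (adjusted p = 0.000655). The difference between knockout oligodendrocytes and progenitors was 0.09 ± 0.31 (SE), with an adjusted p of 0.837.

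Gria4, the AMPA subunit with the smallest p between knockout and control, gave signals of 745.7, 791.4, 635.1 and 904.7 on control arrays and of 2600, 2114 and 2637 on knockout arrays of probe set 1435722_at. Progenitors gave 1301, 1714, 1173 and 1483. The 3 groups did not overlap, with control lowest and knockout highest. Gria4 was 3.15-fold higher in knockout than in control oligodendrocytes (log2 difference 1.66 ± 0.19 SE, limma adjusted p = 0.00022). It was 1.82-fold lower in control oligodendrocytes than in progenitors (adjusted p = 0.00144) and 1.73-fold higher in knockout oligodendrocytes than in progenitors (adjusted p = 0.00418). The 2 dimmer probe sets of Gria4 also had every knockout array above every control array, at 366.8 to 389.3 against 111.1 to 205.5 and at 235.5 to 322.1 against 92.5 to 181.2. On them progenitors overlapped the controls, at 32.1 to 225.9 and 134.6 to 432.5, and with the mean of the 3 probe sets the difference from progenitors was -0.25 (adjusted p = 0.493).

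Kainate receptors are built from subunits that can form a channel alone and from subunits that need such a partner. Grik2 and Grik3 belong to the first kind and Grik5 to the second, which raises the affinity for kainate. Grik5 gave signals of 701.7, 529.1, 452 and 690.1 on control arrays and of 1606, 1749 and 1045 on knockout arrays, with no overlap. Progenitors gave 1176, 1128, 624.4 and 405.2 and overlapped both. Grik5 was 2.41-fold higher in knockout than in control oligodendrocytes (log2 difference 1.27 ± 0.35 SE, limma adjusted p = 0.0462). That call was lost without any of the 7 oligodendrocyte arrays or without progenitor replicate 3, at adjusted p values of 0.0558 to 0.201, and with the replicate block the adjusted p was 0.00367. The difference from progenitors was 0.89 ± 0.35 (SE) in knockout oligodendrocytes (adjusted p = 0.0483, from 0.0155 to 0.162 with an array left out, past 0.05 without any control array, knockout replicate 1 or 2 or progenitor replicate 3 or 4).

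Grik2 went the other way from Grik3 between progenitors and oligodendrocytes. Its signals were 79.4, 145.2, 120.9 and 123.2 in progenitors, 275.1, 279.3, 212.3 and 303.1 in control and 288.3, 170.7 and 189.3 in knockout oligodendrocytes. All oligodendrocyte arrays were above all progenitor arrays, and the oligodendrocyte groups overlapped. Grik2 was 2.15-fold higher in control oligodendrocytes than in progenitors (limma adjusted p = 0.00247). On its second probe set all progenitor arrays lay under 100, and it was at least 2.32-fold higher in control and at least 1.84-fold higher in knockout oligodendrocytes. In knockout oligodendrocytes it was 1.73-fold higher than in progenitors (adjusted p = 0.0228) on the first probe set, and the call was lost without knockout replicate 1 (0.121) or progenitor replicate 1 (0.0572), and after quantile normalization (0.0753). Grik3 gave 2387, 2864, 2219 and 2882 in progenitors, 1218, 1313, 1403 and 1931 in control and 1762, 1144 and 952.1 in knockout oligodendrocytes. Grik3 was 1.77-fold lower in control (adjusted p = 0.00676) and 2.05-fold lower in knockout oligodendrocytes (adjusted p = 0.00307) than in progenitors, with no overlap. For knockout against control the adjusted p was 0.542 for Grik2 and 0.655 for Grik3.

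Grid1 encodes a delta receptor, which resembles the ionotropic glutamate receptors and acts as an adhesion partner at synapses. Its signals were 99.7, 83.9, 81 and 116.8 on control arrays, 216.7, 189 and 216 on knockout arrays and 234.5, 446.7, 215.6 and 281.8 on progenitor arrays. On its brighter probe set the control arrays were the lowest, with no overlap with either group. Grid1 was 2.02-fold higher in knockout than in control oligodendrocytes (log2 difference 1.01 ± 0.26 SE, limma adjusted p = 0.0368) and 2.71-fold lower in control oligodendrocytes than in progenitors (adjusted p = 0.000549). The first call was lost without knockout replicate 1 (0.135), 2 (0.102) or 3 (0.126) and without control replicate 1 (0.0787), 2 (0.0847) or 3 (0.0937). On its dimmer probe set, which missed the filter, knockout arrays gave 125.8 to 173.7 and control arrays 34.6 to 77.4. Progenitor replicates 1 to 4 gave 7.2, 140.4, 80.5 and 2.8 there, so that replicates 1 and 4 lay below every control array and the control and progenitor groups overlapped.

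Grin3a, an NMDA receptor subunit that binds glycine, was the only measured gene of its family and passed no test on all arrays. It is named here after its values were seen. It gave 246.6, 223 and 207.1 on knockout arrays, above the 146.8, 134.3, 100.9 and 150.1 of control arrays, with a log2 difference of 0.71 ± 0.26 (SE) and a limma adjusted p of 0.13. That p was 0.0399 with the replicate block and 0.0444 without progenitor replicate 2. Without that progenitor array the adjusted p between knockout oligodendrocytes and progenitors was 0.0271. A second probe set, below the filter, ran the other way there, at 198.1, 226.9, 170.9 and 266 in progenitors against 125.6, 190.9 and 135.9 in the knockout, with 63.4 to 115.8 in the controls.

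Among metabotropic receptors, Grm7 had the largest log2 difference of the 19 genes between the oligodendrocyte groups. It encodes a receptor that lowers cyclic AMP and, in neurons, sits at release sites. Its probe set 1443119_at gave signals of 512.9, 570.8, 256.3 and 1178 on control arrays and of 118, 68.4 and 40.8 on knockout arrays. Progenitors gave 7.4, 370.2, 72.2 and 28.6, with replicate 2 far above the others. Every control array was above every knockout array, but progenitor replicate 2 lay within the range of the controls. Knockout and control differed by -2.71 ± 0.79 (SE) on the log2 scale, and the limma adjusted p of 0.0597 missed the threshold. It was 0.00178 with the replicate block (log2 difference -2.35), 0.00457 without progenitor replicate 2 and 0.038 without progenitor replicate 1. Grm7 was 7.30-fold higher in control oligodendrocytes than in progenitors (adjusted p = 0.00621). Without progenitor replicate 2 the other progenitor arrays all lay under 100, which gives at least 6.29-fold. Without progenitor replicates 1 and 4 this was 3.05-fold (adjusted p = 0.0778). The 2 dimmer Grm7 probe sets, below the filter, also had every control array above every knockout array, at 83.9 to 258.4 against 6.2 to 51, and at 34.9 to 51.9 against 3 to 15. Progenitors gave 10.2 to 42.2 and 1.1 to 28.6 on them.

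Grm5, a receptor that releases calcium from stores, passed no test. Its signals were 1084, 971.9, 1011 and 1472 in control oligodendrocytes, 1030, 980.8 and 1322 in knockout oligodendrocytes and 1356, 431.3, 3492 and 1163 in progenitors. The oligodendrocyte arrays overlapped, and the progenitor arrays held both the lowest and the highest value. Knockout and control differed by -0.02 ± 0.50 (SE) on the log2 scale, with a limma adjusted p of 0.986.

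**Figure D3:**
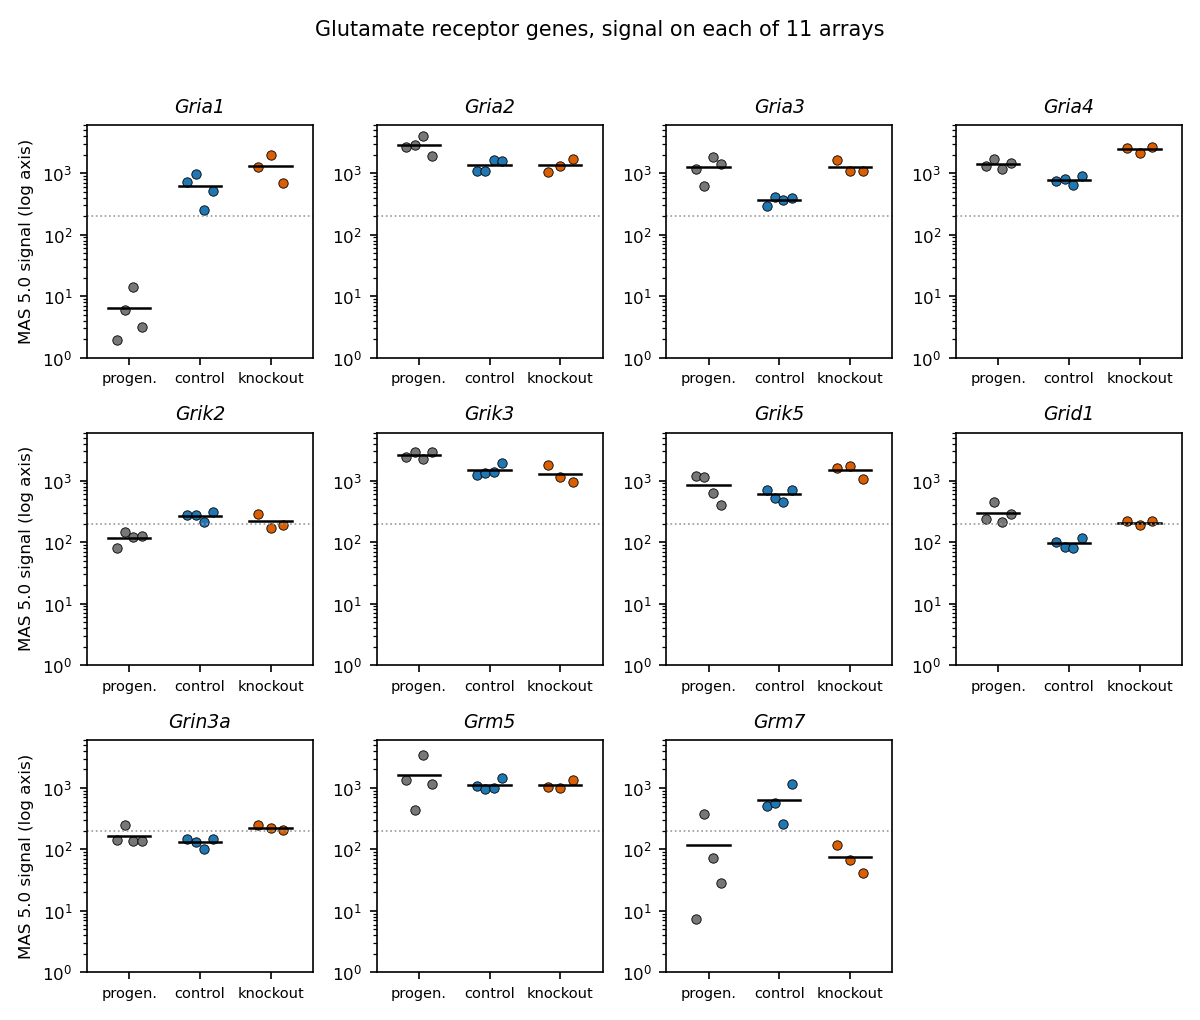
Signal of the 11 measured glutamate receptor genes on each array, on a log axis, with the mean of each group as a bar and the dotted line at a signal of 200. Gria1 lies between 1.9 and 14.2 in progenitors and between 256.3 and 1992 in oligodendrocytes. Gria3, Gria4 and Grid1 are lowest in the control group.

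GABA-A receptors are chloride channels of alpha, beta and mostly gamma subunits. The measured genes were Gabra4, Gabrb1 and Gabrg1, which are neighbours: along mouse chromosome 5 the protein-coding genes follow each other in the order Gabrg1, Gabra2, Cox7b2, Gabra4 and Gabrb1. Their promoters are shown because Gabra4 and Gabrb1 were both higher, and Gabrg1 lower, in oligodendrocytes than in progenitors. The windows of 300 bases run from 250 before to 50 after the start that RefSeq gives on GRCm38.p6, and capitals mark GGGCGG on either strand, the core of a box bound by Sp-family factors.
Gabra4, chr5:71658259-71658558, minus strand: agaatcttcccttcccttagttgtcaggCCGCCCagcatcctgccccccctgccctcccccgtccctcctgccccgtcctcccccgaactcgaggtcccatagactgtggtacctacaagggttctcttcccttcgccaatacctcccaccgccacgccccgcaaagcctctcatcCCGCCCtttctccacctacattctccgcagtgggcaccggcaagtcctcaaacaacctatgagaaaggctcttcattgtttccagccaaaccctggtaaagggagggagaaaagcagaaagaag
Gabrb1, chr5:71657671-71657970, plus strand: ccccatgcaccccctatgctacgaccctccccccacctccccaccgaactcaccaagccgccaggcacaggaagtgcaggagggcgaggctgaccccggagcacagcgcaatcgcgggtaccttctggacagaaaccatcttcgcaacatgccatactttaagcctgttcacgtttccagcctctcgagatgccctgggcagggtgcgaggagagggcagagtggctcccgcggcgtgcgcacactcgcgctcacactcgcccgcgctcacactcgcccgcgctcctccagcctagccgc
Gabrg1, chr5:70842568-70842867, minus strand: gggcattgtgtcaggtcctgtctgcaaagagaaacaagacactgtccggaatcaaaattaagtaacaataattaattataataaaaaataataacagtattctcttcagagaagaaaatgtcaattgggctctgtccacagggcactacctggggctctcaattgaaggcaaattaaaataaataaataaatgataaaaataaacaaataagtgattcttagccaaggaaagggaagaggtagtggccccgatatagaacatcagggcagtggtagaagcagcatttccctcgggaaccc
RefSeq gives 2 starts for Gabrb1, and the window shown is that of the first, near Gabra4. The second lies 42011 bases farther along, and its window held 50.3% G and C. The first start of Gabrb1 and that of Gabra4 lie on opposite strands, 387 bases apart, and each transcript runs toward the start of the other. The Gabra4 and Gabrb1 windows shown held 58.7% and 66.0% G and C, and that of Gabrg1 held 38.3%. GGGCGG occurred 2 times in the Gabra4 window, in none of the others shown, and in 35.7% of all 32851 RefSeq promoter windows of that length.

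Gabrb1, a beta subunit, was nearly undetected in progenitors, at signals of 28, 33, 51.1 and 39.5 on probe set 1419719_at. It gave 831.9, 1291, 407.2 and 899.4 in control and 1170, 2165 and 1243 in knockout oligodendrocytes. Every oligodendrocyte array was above every progenitor array. Gabrb1 was at least 8.57-fold higher in control (log2 difference 3.93 ± 0.32 SE, limma adjusted p = 3.11e-06) and at least 15.3-fold higher in knockout oligodendrocytes than in progenitors (4.80 ± 0.35 SE, adjusted p = 1.44e-06). Knockout and control overlapped, at a log2 difference of 0.87 ± 0.35 (SE) and an adjusted p of 0.17, or 0.0315 with the replicate block.

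Gabra4, an alpha subunit of receptors outside synapses, gave 49.3, 21.1, 66.2 and 58.1 in progenitors. Control oligodendrocytes gave 259, 340.5, 106 and 216.8, and knockout oligodendrocytes gave 485.9, 420.7 and 269.8. On this measured probe set the progenitor arrays were again the lowest, without overlap. Gabra4 was at least 2.31-fold higher in control (limma adjusted p = 0.00124) and at least 3.92-fold higher in knockout oligodendrocytes than in progenitors (adjusted p = 0.000215). Between knockout and control the log2 difference was 0.79 ± 0.39 (SE), with an adjusted p of 0.276, or 0.047 with the replicate block. A dimmer Gabra4 probe set, below the filter, gave 4.2 to 30.3 in progenitors and 126.8 to 168.3 in knockout oligodendrocytes. Control oligodendrocytes gave 16.4 to 193.9 on it and overlapped the progenitors. Gabra2, which lies between Gabrg1 and Gabra4 and missed the filter, gave 17.3 to 60.4 in progenitors, 126.3 to 173.4 in control and 54.5 to 373.3 in knockout oligodendrocytes.

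Gabrg1, the gamma subunit gene at the other end of the row, gave 1705, 2460, 1622 and 1672 in progenitors, 500.6, 590.4, 267.7 and 616.5 in control and 898.4, 735.4 and 719.5 in knockout oligodendrocytes on probe set 1460408_at. The 3 groups did not overlap, with progenitors highest and controls lowest. Gabrg1 was 3.80-fold lower in control oligodendrocytes than in progenitors (log2 difference -1.93 ± 0.25 SE, limma adjusted p = 9.06e-05). It was 2.33-fold lower in knockout oligodendrocytes (adjusted p = 0.00308), a call lost with the mean of its 2 probe sets (0.147). On the second probe set progenitor replicates 1 and 4 gave 181.2 and 133.9 and replicates 2 and 3 gave 894.8 and 431.6, where the oligodendrocyte arrays gave 116.2 to 352.9. Between knockout and control the log2 difference was 0.71 ± 0.27 (SE), with an adjusted p of 0.149, or 0.0399 with the replicate block.

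Gabbr1 encodes the subunit of the GABA-B receptor, a G protein-coupled receptor, that binds GABA. It gave 626.6, 733.4, 623.3 and 704.7 in progenitors, 1051, 1217, 1482 and 1088 in control and 1360, 2121 and 1151 in knockout oligodendrocytes. On this brightest probe set all oligodendrocyte arrays were above all progenitor arrays. Gabbr1 was there 1.77-fold higher in control (log2 difference 0.82, limma adjusted p = 0.00465) and 2.20-fold higher in knockout oligodendrocytes (adjusted p = 0.00115). Knockout and control overlapped (adjusted p = 0.444). On a dimmer measured probe set progenitor replicate 1 (804) was above control replicates 1 (649.1) and 4 (795.5). Fitted on its own, it gave a log2 difference of 0.61 between control and progenitor (limma adjusted p = 0.0641). All knockout arrays stayed above the progenitors there (adjusted p = 0.011). The dimmest measured probe set gave 4.2 to 58.2 in progenitors and 207.9 to 469.6 in oligodendrocytes. Its control and progenitor difference was 2.71 (adjusted p = 0.00045).

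Glrb encodes the glycine receptor subunit that holds the channel at the gephyrin scaffold, and it was measured while its 4 family members in the set stayed at or below a signal of 40.0. It gave 1020, 1123, 857.3 and 1043 in progenitors, 2173, 2242, 2703 and 2185 in control and 1915, 1970 and 1504 in knockout oligodendrocytes. On this brighter probe set, 1422504_at, the 3 groups did not overlap, with controls highest. Glrb was 2.28-fold higher in control oligodendrocytes (limma adjusted p = 9.07e-05) and 1.76-fold higher in knockout oligodendrocytes than in progenitors (adjusted p = 0.00189). The second call was lost with the mean of its 2 probe sets (0.211). On the dimmer measured probe set the groups overlapped, at 763.3 to 1272 in progenitors, 777.1 to 1640 in control and 625.2 to 1346 in knockout oligodendrocytes. Fitted on its own, that probe set gave a log2 difference of 0.29 between control and progenitor (limma adjusted p = 0.421). On the brighter probe set knockout and control differed by -0.37 ± 0.17 (SE) on the log2 scale, with an adjusted p of 0.222.

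Chrna7, whose subunit forms calcium-permeable acetylcholine channels by itself, was brighter in progenitors on its measured probe set. It gave 293.5, 215.3, 154.6 and 513.1 there, 66.5, 78.6, 76.5 and 93.2 in control and 41, 23.7 and 29.3 in knockout oligodendrocytes. All oligodendrocyte arrays lay under 100 and below all progenitor arrays. Against the floor of 100 Chrna7 was at least 2.94-fold lower in control (limma adjusted p = 0.0021) and in knockout oligodendrocytes (adjusted p = 0.000145). Knockout arrays were below control arrays, all under the floor, with an adjusted p of 0.124. A dimmer Chrna7 probe set, below the filter, did not have progenitors highest. It gave 4.8 to 8.8 in progenitors, 6.7 to 53 in control and 2.8 to 25.9 in knockout oligodendrocytes, all under the floor. Chrna4, a subunit of the heteromeric nicotinic receptor and named after its values were seen, gave 242.1, 276.8 and 331.5 in knockout, 224.8, 161.2, 191 and 213.2 in control and 176.5, 206.9, 508.9 and 140.7 in progenitors. Chrna4 passed in no comparison on all arrays, with adjusted p values of 0.472, 0.623 and 0.515, and against progenitors it passed in the knockout without progenitor replicate 3 (0.0374).

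Htr3a, the serotonin receptor subunit that forms an ion channel, gave nearly equal signals of 209.2, 209.1, 203.4 and 194.1 in progenitors. Control oligodendrocytes gave 87.2, 65.1, 60.2 and 110, and knockout oligodendrocytes gave 111.7, 122 and 55.7. Every oligodendrocyte array was below every progenitor array, and the oligodendrocyte groups overlapped. Htr3a was 2.32-fold lower in control (limma adjusted p = 0.00301) and 2.03-fold lower in knockout oligodendrocytes (adjusted p = 0.0124), the latter at 0.0669 without knockout replicate 3.

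**Figure D4:**
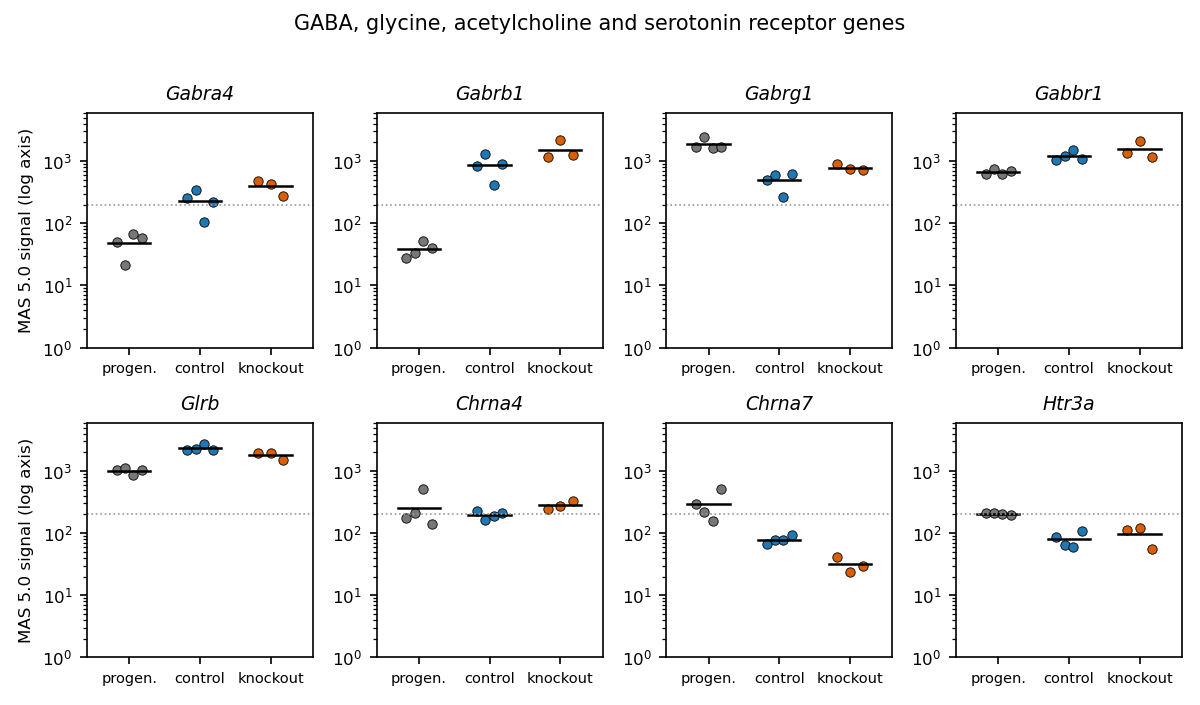
Signal of the 8 measured GABA, glycine, acetylcholine and serotonin receptor genes on each array, on a log axis, with the mean of each group as a bar and the dotted line at a signal of 200. Gabra4 and Gabrb1 are lowest, and Gabrg1, Chrna7 and Htr3a highest, on the progenitor arrays.

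Markers of astrocytes differed from progenitors in the same direction as several of these genes. Their mean level on the log2 scale was 7.60 to 8.01 in progenitors, 11.9 to 12.6 in control and 12.7 to 12.9 in knockout oligodendrocytes. Of the 10 markers 9 were higher in each oligodendrocyte group than in progenitors, and 0 passed between knockout and control. Gria1, Gabrb1 and Gabra4 were at or under 66.2 where the markers were low. Control replicate 3 had the lowest marker level of the 7 oligodendrocyte arrays, and 8 receptor genes, Gria1, Gria4, Grik5, Grid1, Grin3a, Gabra4, Gabrb1 and Gabrg1, were also lowest there among these arrays. This array also had the lowest median signal of the 7 (60.5), and no share over all genes stands beside the count. For Gria4, Grik5, Grid1, Grin3a and Gabrg1 every control array was below every knockout array. Unlike the markers, Gria4, Grid1 and Gabrg1 were lower in control oligodendrocytes than in progenitors. The part of the astrocyte markers in the receptor differences was not tested. The same holds for the mural and fibroblast markers, of which 2 of 7 were measured and 1, Tagln, was higher in knockout than in control oligodendrocytes. Nor was the part of the 4 progenitor markers tested. Of these 1, Vcan, was higher (limma adjusted p = 0.00172) and 0 were lower in knockout than in control oligodendrocytes. Against progenitors all 4 were lower in control oligodendrocytes, and 3 were lower and 1, Vcan, higher in the knockout.

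**Figure D5:**
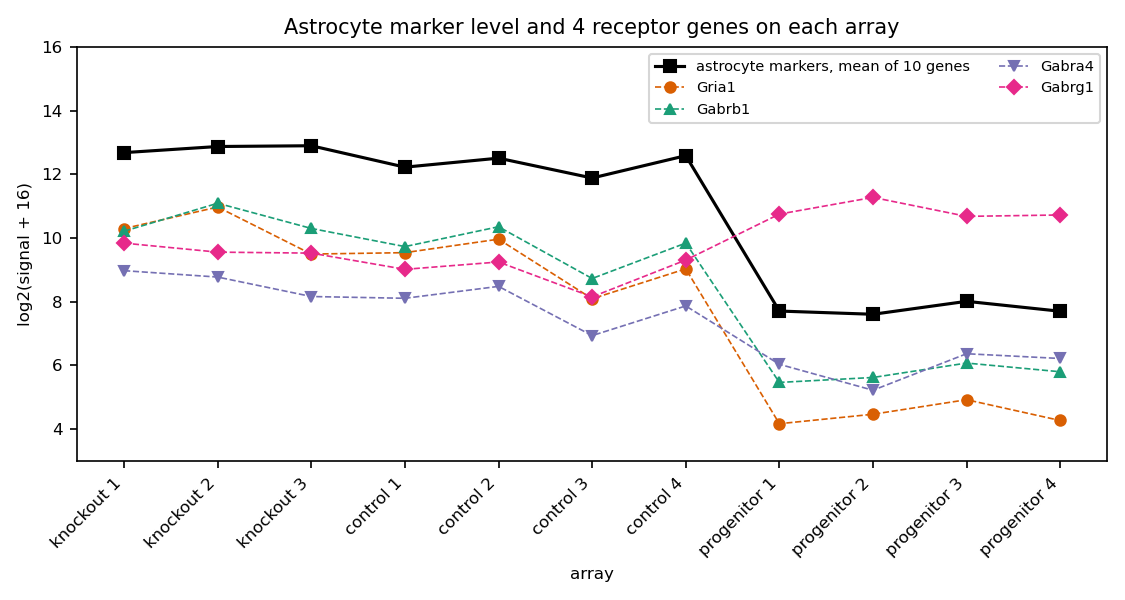
Mean log2 level of 10 astrocyte markers (squares) and the log2 signals of Gria1, Gabrb1, Gabra4 and Gabrg1 on each of the 11 arrays. The markers lie between 7.60 and 8.01 on the progenitor arrays and at 11.9 or more on the oligodendrocyte arrays, with control replicate 3 the lowest of these for all 5 lines.

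RNA length and the state of single progenitor arrays were also set beside receptor values. For genes with several measured probe sets, progenitor replicates 1 and 4 were the 2 lowest progenitor arrays on 8 of 13 dimmer probe sets and on 2 of 10 brightest ones. Progenitor replicate 2, which had the high Myrf signal, held the highest progenitor value for 8 receptor genes, and replicate 3 for 7. No share over all genes stands beside these counts, so they are not read as a result about receptor genes. Some of the progenitor signals counted were near 0, as for Gria1. Across the 10 genes with several measured probe sets, the sign of the difference varied between probe sets for Gria2 and Grm5 between knockout and control, for Gria4 between control and progenitor, and for Glrb between knockout and progenitor. In 0 of these did limma call a pair of probe sets of a gene in opposite directions.

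Genes that anchor, modify or feed these receptors were taken from a separate list of 74 genes, 44 of them measured. Between knockout and control oligodendrocytes 3 were higher and 3 lower, with a median log2 difference of 0.28. Between control oligodendrocytes and progenitors 20 were higher and 10 lower (median 0.26), and between knockout oligodendrocytes and progenitors also 20 and 10 (median 0.53). All these counts are from limma at an adjusted p under 0.05. Over all genes 3.64% were higher and 3.88% lower between knockout and control oligodendrocytes. The shares were 24.4% and 29.6% between control oligodendrocytes and progenitors, and 23.8% and 26.8% between knockout oligodendrocytes and progenitors. The counts by list below stand beside the same shares.

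Of the 11 measured auxiliary subunits of AMPA and kainate receptors, 1 was lower in knockout than in control oligodendrocytes and 0 were higher. This was Cnih3, a cornichon protein that slows the closing of AMPA channels. It gave 236.5, 214.9, 392.3 and 173.9 in control, 22.1, 7.2 and 3.1 in knockout oligodendrocytes and 55.6, 75.3, 40.4 and 53.6 in progenitors. The control arrays were above all others, and Cnih3 was at least 2.54-fold lower in the knockout (log2 difference -3.34, limma adjusted p = 0.000201). Cnih3 reached 200 on 3 control arrays and on 0 knockout and 0 progenitor arrays. It thus passed the filter only through the group where it was bright, which favours a difference. Against progenitors 3 auxiliary genes were higher and 3 lower in control oligodendrocytes. Neto1, a partner of kainate receptors, gave 845.4 to 1937 in progenitors against 100.4 to 203.7 on all oligodendrocyte arrays (adjusted p = 8.99e-06 for control and 1.35e-05 for knockout). Neto1 reached 200 on at least 3 arrays only among progenitors, so the same limit holds for it.

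Among 14 measured genes of excitatory scaffolds 1 was higher in the knockout, Dlgap1, and 2 were lower, Dlg1 and Homer3. Dlgap1 (limma adjusted p = 0.0375) lost the call without any knockout array, control replicate 1, 2 or 3 or progenitor replicate 3. Dlg1 (0.0168) lost it without knockout replicate 2 or 3 or control replicate 1 or 3, and Homer3 (0.0171) without any knockout array. Of 6 measured inhibitory scaffold genes 1 was higher, Nlgn2, the neuroligin of inhibitory synapses, at 4430 to 6015 against 1280 to 2885 (adjusted p = 0.0143, lost without knockout replicate 1 or 2). Of 3 acetylcholine receptor partners 1 was higher. This was Bche, butyrylcholinesterase, which breaks down acetylcholine, at 2776, 2045 and 4246 in knockout, 359.1, 314.7, 242.1 and 415.6 in control and 138.8 to 216.4 in progenitors (adjusted p = 5.46e-05). Of 10 genes that make, break down or take up transmitters, 0 passed between knockout and control, 7 were higher in control and 8 in knockout oligodendrocytes than in progenitors. The last counts include the glutamate transporters Slc1a2 and Slc1a3, which are also on the astrocyte list.

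The promoter table held windows for 13 of the 19 measured receptor genes, 15 windows in all. GGGCGG was found for 8 of the 13, Chrna4, Chrna7, Gabbr1, Gabra4, Glrb, Grik3, Grik5 and Grm7. CTGGCAC or CTGGTAC, forms of the motif known for the Myrf protein, were searched on both strands and occurred for 1 gene, Gabbr1, and in 7.10% of all windows. TATAAA occurred for 0 of the 13 genes and in 13.6% of all windows, and AGGTCA, a site of nuclear receptors, for 0 and in 16.3%. No motif searched contains another. These matches describe letters in the windows and not binding.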

How the data were processed

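RNA was measured on 11 Affymetrix Mouse Genome 430 2.0 arrays. The authors used GCOS 1.3, per the submitters' processing notes, and the deposited values are their MAS 5.0 signal intensity per probe set, scaled on each chip to a target of 500. No further normalization was applied. Of 45101 probe sets, 34958 carry 1 gene in the platform annotation, 932 several and 9211 none, and only the first were used. Probe sets with a signal of 200 on at least 3 arrays were kept, and each gene was read from its probe set of highest mean on the log2 scale.

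Groups came from the sample titles. A mean per group was fitted to log2(signal + 16) on all arrays in limma 3.58.1 (R 4.3.3, moderated variance with an intensity trend), with Benjamini-Hochberg adjustment across 10070 genes and a threshold of 0.05. Fold values are fitted differences on that scale, which understates the change of dim genes. Where all arrays of the lower group lay under 100, the bound is the mean signal of the higher group over 100. The pipeline was tested on simulated data. The number of arrays limits the precision.

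Same-numbered knockout and control arrays deviated together across genes (r = 0.242, 0.241 and 0.214 for replicates 1 to 3), so the result with replicate number as a block is given where it changes a call. Some arrays of different number did too, knockout 3 with control 4 (r = 0.328), knockout 2 with control 1 (0.159) and knockout 1 with control 2 (0.14), so the numbers separate the arrays only in part. The labels do not say what the number stands for, and the check does not hold for the comparisons with progenitors.

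Genes named were measured receptor genes past the threshold in any comparison, the 12 brightest and the AMPA genes, with up to 5 genes below the filter. Partner genes past the threshold could be named, and not all are printed. Members, lists and rules were chosen with earlier results of these data known. Alternatives were another pseudocount, other filters, quantile normalization, only the compared groups, the replicate block, other uses of probe sets, no intensity trend and leaving out each array. Leaving out progenitor replicates 1 and 4 together was chosen after seeing the data. Promoter sequences are from RefSeq, GRCm38.p6, matched by symbol.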

Additional observations from a re-analysis of the deposited data

Results flagged for a closer look

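In 3 of 38 groups of 4 arrays, a receptor gene had a single array farther from the others than Dixon's test allows at its 95% limit, which chance reaches in about 1 of 20 groups. Gabrg1 gave 2460 on progenitor replicate 2 against 1705, 1622 and 1672 on the other progenitor arrays. Grin3a gave 250.1 on the same array against 140, 137.1 and 139.6. Glrb gave 2703 on control replicate 3 against 2173, 2242 and 2185 on the other control arrays.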

How the results depend on the processing

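Of 57 gene results, 3 comparisons of 19 receptor genes, 32 passed the threshold, all 32 kept their direction under the alternatives in which they could be computed, and 22 of them passed under each of these. Of the 25 others, 10 passed under some alternative. Between knockout and control the count of 4 genes became 2 without the filter, which then tests 74 receptor genes, 7 with only the compared groups and 10 with the replicate block. It ranged from 2 to 6 with an array left out. The higher count became 2 without the filter and 9 with the replicate block, and ranged from 2 to 5 with an array left out. The lower count of 0 became 1 with a pseudocount of 64, 2 with only the compared groups, 1 with the replicate block and 1 without progenitor replicates 1 and 4, and ranged from 0 to 1 with an array left out. Against progenitors the control's lower count of 8 became 5 at a filter of 500, where 12 genes are measured. The knockout's higher count of 8 became 5 with the replicate block, and its lower count of 5 became 8 without the filter, 3 at a filter of 500 and 3 without progenitor replicates 1 and 4, and ranged from 3 to 5 with an array left out. The replicate numbers do not pair arrays in the comparisons with progenitors. The block changed no knockout-control call of a receptor gene other than the 6 named in the report. With the block Gria4, Grik2, Grik5 and Htr3a lost the call between knockout and progenitor, and no call between control and progenitor changed.

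Only results that passed no test changed sign. The log2 difference of Gria2 between knockout and control became -0.043 after quantile normalization, and ranged from -0.17 to 0.17 with an array left out. That of Grm5 became 0.11 with the replicate block, from -0.15 to 0.11 with an array left out. Between knockout and progenitor Grm7 became -0.046 with a pseudocount of 64, -0.10 with the replicate block and -1.10 without progenitor replicates 1 and 4, from -0.41 to 0.93 with an array left out. Chrna4 became -0.20 there without progenitor replicates 1 and 4. With an array left out, Gria3 ranged from -0.21 to 0.30 and Grm5 from -0.67 to 0.32 between knockout and progenitor. Between control and progenitor Chrna4 ranged from -0.41 to 0.17 and Grm5 from -0.65 to 0.34. The cause was not tested, except that other filters change how many genes are tested and array removals how many arrays. A pseudocount of 64 gave log2 differences of 3.15 and 4.18 for Gria1 in control and knockout oligodendrocytes against progenitors. Signals near 0, as for Gria1 in progenitors, limit how large a fold can be stated.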
